A study of Mus musculus with 10 samples.

Results

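Apart from the transcription factor Hsf1, the 37 genes described here code for chaperones of the cytosol and of the mitochondrial matrix or their helpers. They are part of 23420 gene rows in RNA-seq count tables from mouse liver, and Hsf1 is counted with the chaperone genes below. The 37 genes were taken by gene name from known chaperone families, with earlier results of these data known. They comprise HSP70 proteins and their exchange factors, J proteins, HSP90 and its helpers, small heat shock proteins and the mitochondrial chaperonin. Further members are the heat shock factor Hsf1, all 8 subunits of the cytosolic chaperonin TRiC and 4 subunits of prefoldin. All 37 were found in the tables, and 36 passed the filter on low counts. Hspa1a did not.

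The 5 starved livers came from male C57BL/6 mice aged 4 months that had water but no food for 48 hours. The 5 fed livers came from male C57BL/6 mice of the same age that ate a standard chow. The labels name no transgene, mutation or drug in any of these mice, and the series asks how the metabolic state controls genes through β-hydroxybutyrylation of histone lysines. Each library is numbered 1 to 5 within its group, and the labels speak of pairs of mice without saying what makes a pair. Gene rows held 18.2 to 28.1 M reads in the starved libraries (mean 23.1 ± 4.11 SD) and 23.0 to 29.9 M reads in the fed libraries (mean 26.5 ± 2.51). Starved libraries 2 and 4 stood apart: the chi-square per degree of freedom of their counts against any other starved library was 117 to 263, against 11.2 to 47.8 among starved libraries 1, 3 and 5 and 21.4 to 83.2 among fed libraries. The counts of called chaperone genes and the values of some single genes are therefore also given without these libraries. Hepatocyte markers summed to 103762 to 163555 CPM in the starved livers and 82623 to 121135 CPM in the fed livers, where CPM is the read count relative to the library's total, in counts per M reads, after TMM scaling, edgeR's correction for the makeup of each library. Of these 6 markers 3 were called higher and 2 lower in starved liver, with a median log2 fold change of 0.35, or 0.14 without starved libraries 2 and 4. Their part in the results below was not tested.

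HSP70 proteins hold unfolded stretches of other proteins. J proteins bring them their clients and trigger ATP hydrolysis, and exchange factors reset the cycle. HSP90 takes over partly folded clients such as steroid receptors, small heat shock proteins keep unfolding proteins soluble, and the chaperonins enclose a chain in a chamber, HSP60 with its lid HSP10 in mitochondria and TRiC in the cytosol, where prefoldin delivers new actin and tubulin. Under heat or other protein damage the factor HSF1 binds heat shock elements, repeats of GAA and its inverse TTC, and raises many of the heat-inducible members. The liver, which makes most plasma proteins and holds many mitochondria, uses both the cytosolic and the mitochondrial branch.

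In starved liver, 13 of the 36 tested genes rose and 2 fell. Those that rose include 6 of 8 TRiC subunits, both parts of the mitochondrial chaperonin, the mitochondrial HSP70 gene Hspa9 and the small heat shock protein gene Hspb1. The genes that fell were Dnajb1, a J protein, and Cryab, a small heat shock protein. The threshold for a call was 0.05 on the p-value of edgeR's quasi-likelihood test, adjusted by Benjamini and Hochberg's method across the 12796 genes that passed the filter. Of all tested genes 18.6% were called higher and 20.0% lower in starved liver (38.6% in either direction), so that 36.1% of the chaperone genes were higher beside 18.6% of all genes and 5.56% lower beside 20.0%. The median log2 fold change was 0.28 for the chaperone genes and 0.00 for all tested genes, with 24 chaperone genes above 0 and 12 below, and single values between −0.98 and 1.08. The starved and fed libraries did not overlap in 14 chaperone genes, 12 of them higher and 2 lower in starved liver, which is 38.9% beside 29.9% of all tested genes. In bulk liver, fewer cells of a type and less RNA per cell cannot be told apart. Without starved libraries 2 and 4, 16 chaperone genes were higher and 3 lower with a median of 0.24, beside 20.2% higher and 20.7% lower among 13080 tested genes. With library totals alone as scaling, which moved the median of all genes by −0.15, the counts were 6 higher and 5 lower with a median of 0.13, beside 11.6% higher and 27.3% lower among all tested genes. The DESeq2 Wald test called 18 chaperone genes higher and 4 lower, beside 22.2% higher and 20.9% lower among all tested genes.

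**Figure D1:**
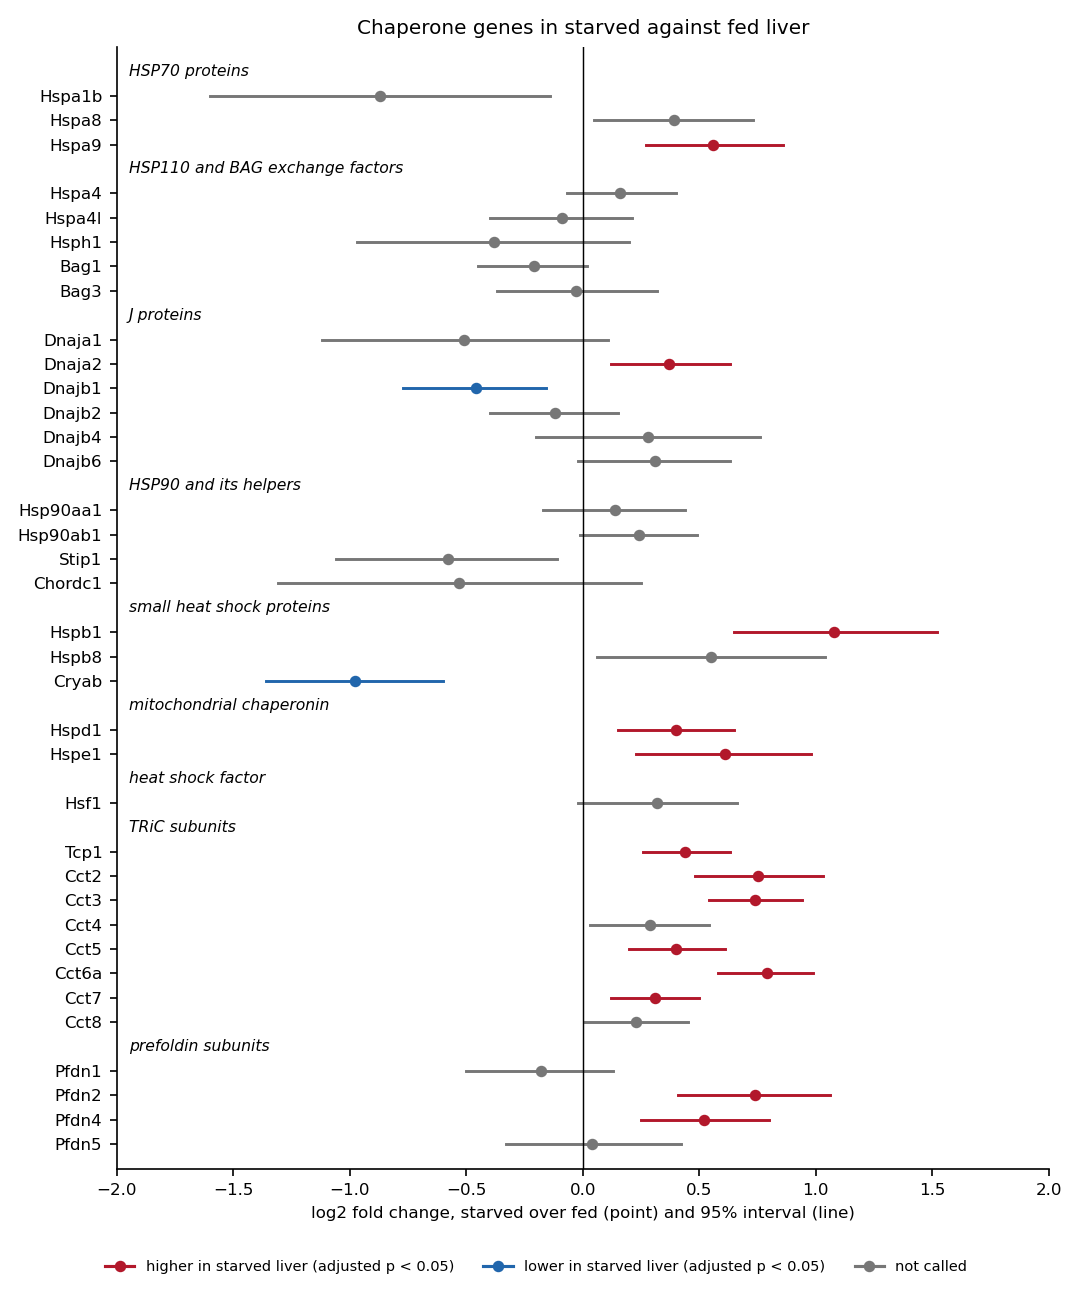
Log2 fold change of the 36 tested chaperone genes, starved over fed (points), with the 95% interval of edgeR's fit (lines), grouped by role; red marks genes called higher in starved liver, blue genes called lower and grey genes not called. All 8 TRiC subunits lie above 0, from 0.23 to 0.79, while Cryab at −0.98 and Hspb1 at 1.08 mark the ends of the range.

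Heat shock elements were looked for in the RefSeq promoter windows of the members, which run from 250 bases before to 50 bases after a start (build GRCm38.p6). A match with 2 inverted units was GAANNTTC or TTCNNGAA, and a match with 3 was either of these followed, after NN, by another inverted unit. Both strands were read, and each match with 3 units contains matches with 2. Of the 29 members with a window, 15 held 2 units, or 51.7%, beside 18.8% of 48 other chaperone genes, 14.3% of 9505 tested genes and 17% of all 27025 genes with a window. A match with 3 units was found in 5 members, or 17.2%, of which Hspd1 and Hspe1 share the same bases, in 0 of the other chaperone genes, and in 0.6% of tested and 0.662% of all genes. Of the 12 members called higher that have a window, 6 held a match, and the only member called lower with a window held 0. Of the 15 members not called that have a window, 8 held a match, beside Hspa1a, which was not tested. The stretches around the matches are shown as examples for some members that rose (Hspe1, Cct2, Cct5, Hspb1) and some that did not pass (Hspa1b, Dnajb6). Other members with a match, such as Hsph1, Dnaja1 and Dnajb4, are not shown. Capitals mark the matching bases, and each stretch runs 5′ to 3′ on its gene's strand.
Hspe1: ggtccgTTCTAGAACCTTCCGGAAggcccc
Hspb1: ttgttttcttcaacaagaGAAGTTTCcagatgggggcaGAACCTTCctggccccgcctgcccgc
Cct2: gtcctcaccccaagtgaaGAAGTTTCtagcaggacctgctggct
Cct5: acagcggccgaTTCCAGAAgctactctgcg
Hspa1b: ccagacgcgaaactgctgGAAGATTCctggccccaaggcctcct
Dnajb6: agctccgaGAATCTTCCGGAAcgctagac
The Hspe1 stretch lies at chr1:55088053-55088082 on the plus strand, and the same bases on the minus strand belong to the window of Hspd1, in whose annotated exon they lie. The Hspb1 stretch, at chr5:135887784-135887847 on the plus strand, holds 2 separate matches outside any annotated exon. The Cct2 stretch is chr10:117063392-117063435 and the Cct5 stretch chr15:31601862-31601891, both on the minus strand, the Cct5 stretch within an exon of the neighbouring Fam173b. The Hspa1b stretch, chr17:34959317-34959360 on the minus strand, has the same 44 bases as that of Hspa1a at chr17:34972235-34972278. The Dnajb6 stretch, chr5:29735844-29735872 on the plus strand, lies in an exon of one of its transcripts.

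The TRiC chaperonin folds actin, tubulin and many other cytosolic proteins with rings built of 8 different subunits, and 6 of their genes rose in starved liver while Cct4 and Cct8 did not pass the test. Cct6a, on chromosome 5 from 129786998 to 129846371 (GRCm38, the build of the files), had 175, 173, 169.8, 177 and 149 CPM in starved libraries 1 to 5, against 96.7, 105, 98.2, 103 and 86.5 CPM in fed libraries 1 to 5, a log2 fold change of 0.79 ± 0.09 (SE, adjusted p = 0.00015). For the genes that follow, brackets give the same log2 fold change of starved over fed with its SE. Cct3, on chromosome 3 from 88297116 to 88321767, had 191, 164, 182, 199.96 and 185 CPM in the starved livers and 106, 118, 111, 114 and 103 CPM in the fed livers (0.74 ± 0.09, adjusted p = 0.000175). The lowest starved library lay well above the highest fed library in both genes. Cct2, on chromosome 10 from 117051001 to 117063814, had 198, 292, 200.3, 249.9 and 199 CPM in the starved livers and 136, 138, 133, 138 and 129.9 CPM in the fed livers (0.75 ± 0.12, adjusted p = 0.000889). Starved libraries 2 and 4 were the highest for Cct2, and without them its log2 fold change was 0.58 (adjusted p = 0.000145).

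Tcp1, the founding subunit of the complex, had 178, 167, 181, 188 and 166 CPM in the starved livers, against 138, 127, 123, 130.4 and 129.5 CPM in the fed livers (0.44 ± 0.09, adjusted p = 0.00217). Cct5 had 270.4, 257, 274, 272 and 243 CPM in the starved livers and 220.5, 183, 197, 205 and 189.8 CPM in the fed livers (0.40 ± 0.09, adjusted p = 0.00564). Cct7 had 119.6, 111, 114, 135 and 108 CPM in the starved livers and 97.7, 92, 94.7, 97.3 and 92.6 CPM in the fed livers (0.31 ± 0.09, adjusted p = 0.0175). In these 3 genes the groups did not overlap. Cct4 and Cct8 overlapped between the groups: Cct4 averaged 181 ± 19.9 CPM in starved and 148 ± 19.3 CPM in fed livers (0.29 ± 0.12, adjusted p = 0.0721). Cct8 averaged 119.95 ± 14.2 CPM in starved and 102 ± 4.61 CPM in fed livers (0.23 ± 0.10, adjusted p = 0.0933), with starved library 2 at 98 CPM below all fed libraries. Without starved libraries 2 and 4, Cct8 also passed (adjusted p = 0.0167) and Cct4 did not (0.0937), which makes 7 of 8. Cct4 passed without starved library 2 (log2 fold change 0.32, adjusted p = 0.0447) and without fed library 1 (0.36, 0.0312). With library totals alone only Cct2, Cct3 and Cct6a kept their call, and all 8 stayed above 0 with a median of 0.26, beside 0.42 with TMM. No TRiC gene was lower by any tool, at an unadjusted p under 0.05 either, and the DESeq2 Wald test called all 8 higher.

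The 8 TRiC genes together summed to 1417, 1429.7, 1426, 1574 and 1347 CPM in starved libraries 1 to 5, against 1072, 1017, 985, 1034 and 978 CPM in fed libraries 1 to 5. The sums did not overlap between the groups. Per kilobase of merged exons, the levels were unequal within each group. In starved liver Cct5 stood highest at 142 ± 7.26 CPM per kb, followed by Cct2 at 111 ± 20.5, Cct3 at 81.1 ± 5.86, Cct4 at 72.9 ± 8.01, Cct6a at 68.8 ± 4.65, Tcp1 at 61.5 ± 3.3, Cct8 at 50.02 ± 5.92 and Cct7 at 48.2 ± 4.26 (mean ± SD, n = 5). In fed liver the order was Cct5 at 107 ± 7.85 CPM per kb, Cct2 at 65.8 ± 1.75, Cct4 at 59.7 ± 7.78, Cct3 at 48.5 ± 2.69, Tcp1 at 45.3 ± 1.86, Cct8 at 42.7 ± 1.92, Cct6a at 39.9 ± 2.95 and Cct7 at 38.9 ± 1.06. In starved liver the library ranges separated Cct2 from Cct3 (96.3 against at most 87.9 CPM per kb) and Tcp1 from Cct8, and those of the other neighbours overlapped. In fed liver only Cct5 was set apart from the next gene, with a lowest value of 98.7 CPM per kb against a highest of 67.3 for Cct2. The ratio of Cct2 to Cct8 per kb was 2.27 ± 0.682 in starved and 1.54 ± 0.0656 in fed livers, with a range of 1.91 to 3.48 in starved and 1.47 to 1.61 in fed livers.

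**Figure D2:**
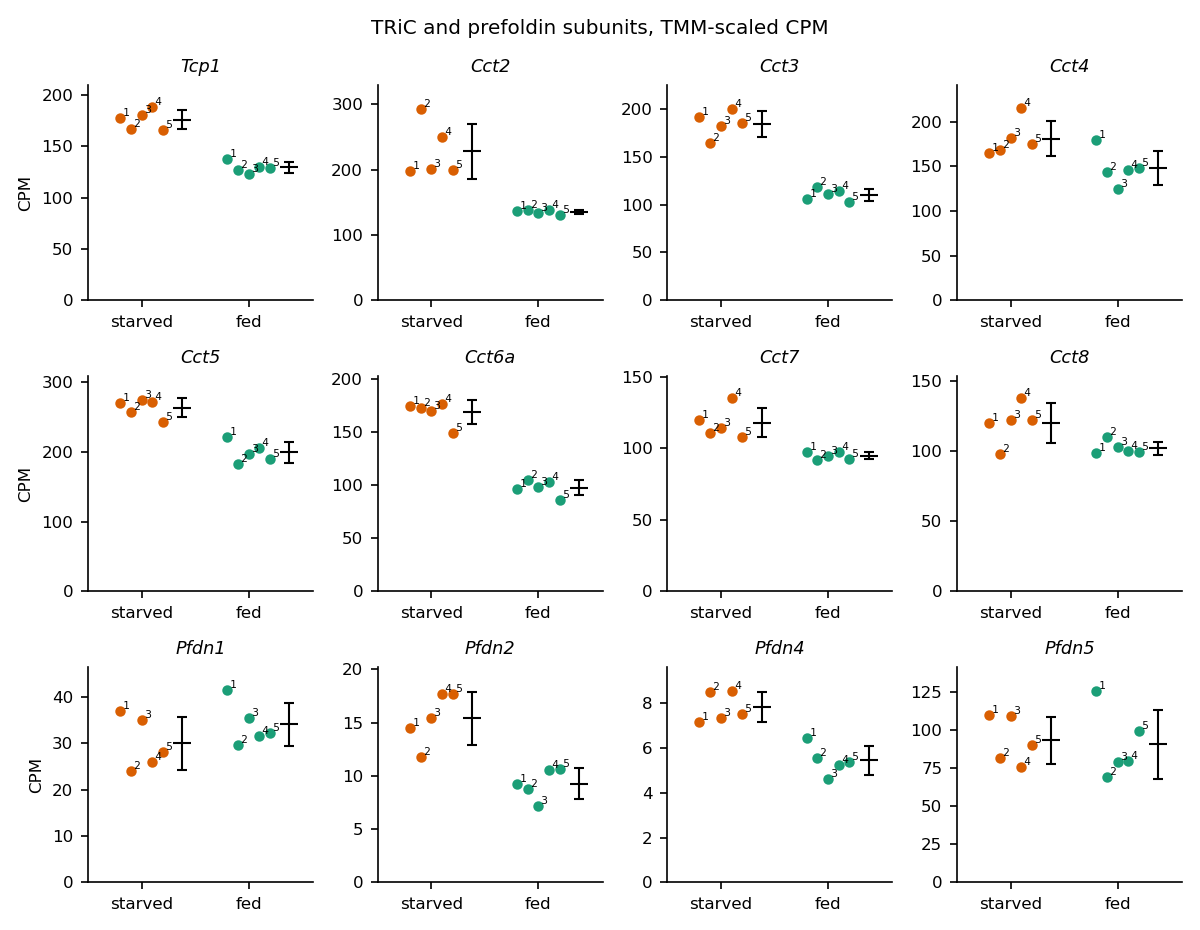
TMM-scaled CPM of the 8 TRiC and 4 prefoldin subunits in each library; orange points are starved and green points fed livers, numbered by library, and bars give the mean ± SD (n = 5). The groups are apart for Tcp1, Cct2, Cct3, Cct5, Cct6a, Cct7, Pfdn2 and Pfdn4 and overlap for Cct4, Cct8, Pfdn1 and Pfdn5.

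Prefoldin hands unfolded actin and tubulin to TRiC, and 2 of its 4 genes listed here rose in starved liver. Pfdn2, on chromosome 1 from 171345670 to 171359254, had 14.5, 11.8, 15.4, 17.7 and 17.7 CPM in the starved livers, against 9.24, 8.72, 7.17, 10.5 and 10.6 CPM in the fed livers (0.74 ± 0.15, adjusted p = 0.00297). Pfdn4 had 7.16, 8.5, 7.33, 8.56 and 7.53 CPM in the starved livers and 6.43, 5.53, 4.63, 5.23 and 5.39 CPM in the fed livers (0.52 ± 0.13, adjusted p = 0.00731). Neither gene overlapped between the groups, and under library totals alone Pfdn4 missed the threshold (adjusted p = 0.0519). Pfdn5, which is also known as a binding partner of the MYC protein, had 109.8, 81.9, 109, 76 and 90.5 CPM in the starved livers and 126, 69, 79.3, 79.6 and 99.3 CPM in the fed livers (0.04 ± 0.17, adjusted p = 0.859). Its ranges overlapped almost wholly, with fed library 1 the highest. Pfdn1 averaged 30.04 ± 5.73 CPM in starved and 34.1 ± 4.63 CPM in fed livers (−0.18 ± 0.14, adjusted p = 0.332). Per kilobase Pfdn5 was the highest of the 4 in both groups, at 67.4 ± 11.1 CPM per kb in starved and 65.4 ± 16.3 in fed liver, and Pfdn4 the lowest, at 6.84 ± 0.583 in starved and 4.76 ± 0.566 in fed liver. Exons of Pfdn2, Pfdn4, Tcp1, Cct6a, Cct7 and Cct8 overlap a gene on the other strand, over 192 to 639 bases, and whether the authors' counting used strand is not given in the sources used here, so reads of these stretches may belong to either gene.

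Both parts of the mitochondrial chaperonin rose. Their genes lie head to head on chromosome 1, Hspd1 at 55077835 to 55088243 on the minus strand and Hspe1 at 55088132 to 55091307 on the plus strand, with 112 bases of exon in common. Hspd1, the HSP60 chamber, had 421, 475, 441, 510.5 and 389 CPM in the starved livers, against 344, 360.0, 284, 376 and 329.5 CPM in the fed livers (0.40 ± 0.11, adjusted p = 0.0169). Hspe1, the HSP10 lid, had 298, 204, 307, 269 and 185 CPM in the starved livers and 211, 136, 145, 174 and 163 CPM in the fed livers (0.61 ± 0.17, adjusted p = 0.0156). The groups were apart for Hspd1, while for Hspe1 starved libraries 2 and 5 lay below fed library 1. Without starved libraries 2 and 4 the log2 fold change was 0.32 for Hspd1 and 0.69 for Hspe1 and both calls held, and with library totals alone both were lost (adjusted p = 0.133 and 0.0861). The ratio of Hspd1 to Hspe1 per kb was 0.587 ± 0.13 in starved and 0.665 ± 0.118 in fed livers, with overlapping ranges. Processed copies of both genes are annotated: 39.7% of the 50-base stretches of Hspd1 and 18.4% of those of Hspe1 occur in another annotated gene, so part of their reads may have been left uncounted or counted elsewhere.

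Of the 3 tested HSP70 genes, Hspa9 rose, and Hspa8 and Hspa1b did not pass. Hspa9, the mitochondrial HSP70 that pulls imported proteins into the matrix, lies on chromosome 18 from 34937414 to 34954357. It had 575, 787, 594, 784 and 533 CPM in the starved livers, against 406, 477, 436, 474 and 419.5 CPM in the fed livers (0.56 ± 0.14, adjusted p = 0.00704). All 5 starved libraries lay above all fed libraries, with libraries 2 and 4 the highest, and without those the log2 fold change was 0.38 (adjusted p = 0.0101). Hspa8, the constitutive cytosolic HSP70 and the member with the highest level per kilobase, had 2032, 2099, 2601, 2956 and 2917 CPM in the starved livers and 2115, 2015, 1469, 2104 and 1913 CPM in the fed livers (0.39 ± 0.16, adjusted p = 0.0658). Starved libraries 3, 4 and 5 were above every fed library and 1 and 2 were not. Hspa8 passed without starved library 1 (log2 fold change 0.46, adjusted p = 0.0414) or 2 (0.46, 0.0308), and in the DESeq2 Wald test (adjusted p = 0.0189). With library totals alone its log2 fold change was 0.24 (adjusted p = 0.296), and over fits that left out 1 library it ran from 0.31 to 0.46. Of the 50-base stretches of Hspa8, 38.6% recur in other annotated genes.

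The heat-inducible HSP70 genes were scarce in both groups. Hspa1b had 1.75, 1.07, 3.64, 2.31 and 2.55 CPM in the starved livers, against 2.46, 4.14, 2.61, 5.99 and 5.47 CPM in the fed livers (−0.87 ± 0.33, adjusted p = 0.0576). The ranges overlapped, with fed libraries 2, 4 and 5 above every starved library. Without starved libraries 2 and 4 its log2 fold change was −0.64 (adjusted p = 0.143). It passed as lower without starved library 3 (−1.10, 0.0246), fed library 1 (−1.01, 0.0391) or fed library 3 (adjusted p = 0.0455). Hspa1b was also called lower in the DESeq2 Wald test (adjusted p = 0.0321) and with library totals alone (−1.01, adjusted p = 0.0375). Hspa1a, the gene that failed the filter, had 0.272, 0.0534, 0.0492, 0.217 and 0.116 CPM in the starved livers and 0.14, 0.133, 0.147, 0.103 and 0.362 CPM in the fed livers, which is 1 to 7 reads per starved library and 3 to 9 per fed library. The pair is near identical: 60.3% of the 50-base stretches of Hspa1a and 62.3% of those of Hspa1b recur in another gene, and reads that fit both may have been left uncounted, so both levels are uncertain. Per kilobase Hspa8 stood at 1053 ± 183 CPM in starved and 803 ± 111 in fed liver, Hspa9 at 215 ± 39.9 in starved and 145 ± 10.5 in fed liver, and Hspa1b at 0.808 ± 0.342 in starved and 1.48 ± 0.574 in fed liver. These 3 genes stood in the same order in both groups, with no overlap of their ranges within a group.

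Of the 5 HSP110 and BAG exchange factor genes 0 passed edgeR's quasi-likelihood test over all libraries with TMM scaling, and 0 had an unadjusted p under 0.05 in it. DESeq2 and limma-voom called 0. The median log2 fold change of these 5 genes was −0.09 (−0.25 with library totals alone). Bag1, an exchange factor with the highest level per kilobase of these 5, had 83.9, 71.2, 78.4, 59.98 and 74.8 CPM in the starved livers and 97.8, 77.9, 83.7, 84.9 and 82.5 CPM in the fed livers (−0.21 ± 0.11, adjusted p = 0.14). The groups overlapped, with starved library 4 the lowest. With library totals alone Bag1 passed as lower (log2 fold change −0.37, adjusted p = 0.0323). Hspa4, an HSP110 protein, had 133, 142, 139, 169 and 146 CPM in the starved livers and 121, 153, 135, 122 and 120.4 CPM in the fed livers (0.16 ± 0.11, adjusted p = 0.238). Its groups overlapped over most of their range. Hspa4l (−0.09 ± 0.14), Hsph1 (−0.38 ± 0.27) and Bag3 (−0.03 ± 0.16) had adjusted p-values of 0.624, 0.274 and 0.906. Hsph1, the heat-inducible HSP110 gene, was at 8.6 CPM in starved library 2, against 21.7 to 34.5 CPM in the other starved livers and 25.8 to 32.1 CPM in the fed livers. The log2 fold change of Hsph1 was −0.17 without starved library 2 and −0.09 without starved libraries 2 and 4. Without starved libraries 2 and 4, Hspa4l passed as lower (log2 fold change −0.25, adjusted p = 0.0396).

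Among the 6 J protein genes 1 rose and 1 fell (16.7% each), with a median log2 fold change of 0.08 (−0.07 with library totals alone). These shares are near the 18.6% higher and 20.0% lower among all tested genes. Dnaja2, a class A J protein that works with Hspa8, had 116, 165, 121, 136 and 109 CPM in the starved livers, against 106, 99.8, 96.6, 96.6 and 101 CPM in the fed livers (0.37 ± 0.12, adjusted p = 0.0263). The groups did not overlap, with starved library 5 at 109 CPM close to fed library 1 at 106 CPM. Its log2 fold change was 0.23 without starved libraries 2 and 4 (adjusted p = 0.0433), and its call was lost without fed library 2, 3, 4 or 5 (adjusted p of 0.0529, 0.0614, 0.0627 and 0.0552) and with library totals alone (0.16). Dnajb1, the heat-inducible HSP40, had 27.7, 21.1, 33.3, 22.7 and 22.3 CPM in the starved livers and 33.9, 35.9, 29.8, 38.1 and 37.8 CPM in the fed livers (−0.46 ± 0.14, adjusted p = 0.0199). Starved library 3 lay above fed library 3, so the groups overlapped. The call of Dnajb1 was lost without starved library 4 (adjusted p = 0.0615), without fed library 4 (0.0504) and without starved libraries 2 and 4 together (log2 fold change −0.31, adjusted p = 0.068).

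Dnaja1, a farnesylated J protein, had 151, 47.6, 149, 75.6 and 162 CPM in the starved livers and 172, 171, 146, 158 and 185 CPM in the fed livers (−0.51 ± 0.28, adjusted p = 0.176). Starved libraries 2 and 4 lay far below all the others, and without them the log2 fold change was −0.09. Dnajb2 (−0.12 ± 0.13), Dnajb4 (0.28 ± 0.22) and Dnajb6 (0.31 ± 0.15) had adjusted p-values of 0.458, 0.323 and 0.121. Dnajb4, a close relative of Dnajb1, passed as higher without starved libraries 2 and 4 (0.56, adjusted p = 0.0257). Per kilobase Dnaja2 was the highest J protein gene in both groups, at 44.3 ± 7.55 CPM in starved and 34.3 ± 1.37 in fed liver. Dnajb1 was the lowest in starved liver at 7.93 ± 1.58 CPM per kb, beside 11 ± 1.07 in fed liver, where Dnajb2 was the lowest at 9.5 ± 0.582; the ranges of Dnajb1 and Dnajb2 overlapped in both groups.

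Of the 4 genes of HSP90 and its helpers 0 passed edgeR's quasi-likelihood test over all libraries with TMM scaling, and 1, Stip1, had an unadjusted p under 0.05. The limma-voom test called 1 lower and DESeq2 1 higher and 1 lower. Hsp90ab1, the constitutive HSP90, had 934, 861, 1048, 1143 and 1003 CPM in the starved livers, against 894, 878, 738, 899 and 812 CPM in the fed livers (0.24 ± 0.12, adjusted p = 0.115). Starved library 2 lay within the fed range and the other starved libraries above it. Hsp90ab1 passed without starved library 2 (0.30, 0.0483) and in the DESeq2 Wald test (0.0248). Hsp90aa1, the inducible HSP90, averaged 241 ± 44.8 CPM in starved and 219 ± 27.6 CPM in fed livers (0.14 ± 0.14, adjusted p = 0.455), and 47.5% of its 50-base stretches recur in other annotated genes. Stip1, the adaptor that holds HSP70 and HSP90 together, had 60.8, 26.2, 66.4, 53.4 and 75 CPM in the starved livers and 78.6, 87, 88.6, 86.7 and 81.2 CPM in the fed livers (−0.58 ± 0.22, adjusted p = 0.0515). The groups did not overlap, and starved library 2 was the lowest by far. Stip1 passed as lower without starved libraries 2 and 4 (−0.31, adjusted p = 0.0143), without starved library 2, 3 or 5 alone (adjusted p of 0.0103, 0.0498 and 0.0278), and in the DESeq2 Wald test (0.0351) and limma-voom (0.0396). With library totals alone Stip1 passed as lower too (−0.72, adjusted p = 0.0308). Chordc1, an HSP90 co-chaperone, was at 8.18 CPM in starved library 2, against 34.3 to 54.4 CPM in the other starved livers and 47.4 to 57.7 CPM in the fed livers (−0.53 ± 0.36, adjusted p = 0.256). Its log2 fold change was −0.26 without starved library 2 and −0.15 without starved libraries 2 and 4.

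The small heat shock protein genes went separate ways. Hspb1, which codes for the mouse HSP25 and lies on chromosome 5 from 135887919 to 135889563, had 29.3, 55.9, 37.5, 42.1 and 24.9 CPM in the starved livers, against 17.1, 15.6, 18.5, 22.2 and 16 CPM in the fed livers (1.08 ± 0.20, adjusted p = 0.00175). This was the highest log2 fold change of the members, with no overlap between the groups and libraries 2 and 4 the highest of the starved livers, and it was 0.80 without them (adjusted p = 0.00101). A pseudogene shares 48.8% of its 50-base stretches. Cryab, αB-crystallin, on chromosome 9 from 50751325 to 50756636, had 1.79, 1.6, 1.38, 0.976 and 1.56 CPM in the starved livers and 2.99, 2.58, 3.09, 2.82 and 2.9 CPM in the fed livers (−0.98 ± 0.18, adjusted p = 0.00143). The highest starved library lay below the lowest fed library, and without starved libraries 2 and 4 the log2 fold change was −0.84 (adjusted p = 0.00183). Exons of Cryab overlap those of its neighbour Hspb2 on the other strand over 252 bases. Hspb8, the partner of Bag3 in selective autophagy, had 346, 578, 265, 222 and 279.5 CPM in the starved livers and 237, 224, 208, 249 and 237 CPM in the fed livers (0.55 ± 0.22, adjusted p = 0.0692). Starved library 2 was the highest and starved library 4 lay within the fed range. Hspb8 passed as higher without both (0.38, adjusted p = 0.0159) and without library 4 alone (0.70, 0.0303).

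Markers of other cell types in liver also differed between the groups, and their summed levels are given beside the fall of the scarce Cryab. The mesothelium markers summed to 2.14 to 6 CPM in starved and 6.68 to 15.9 CPM in fed livers, with 0 of 4 called higher and 2 lower. Kupffer cell and macrophage markers summed to 138 to 296 CPM in starved and 362 to 586 CPM in fed livers, with 0 of 7 higher and 6 lower. Both sums were lower in every starved library than in any fed library. Stellate cell and fibroblast markers (425 to 622 CPM in starved, 422 to 485 CPM in fed; 1 of 7 higher and 2 lower) and endothelial markers (174 to 228 CPM in starved, 209 to 247 CPM in fed; 1 of 6 higher and 3 lower) overlapped between the groups. The cholangiocyte sum was 15 to 40.6 CPM in starved and 46.3 to 57.2 CPM in fed livers, with 0 of 5 higher and 1 lower. Muscle markers were at 7.05 to 12.3 CPM in starved and 8.81 to 11 CPM in fed livers, with 0 of 3 tested called. Neutrophil markers were at 2.78 to 22.2 CPM in starved and 1.76 to 3.65 CPM in fed livers, with 3 of 3 tested higher. The muscle and neutrophil sums overlapped between the groups, as did those that follow. Lymphocyte markers summed to 0.428 to 3.44 CPM in starved and 2.83 to 4.21 CPM in fed livers, with 0 of 4 tested higher and 1 lower. Red blood cell markers summed to 167 to 599 CPM in starved and 454 to 648 CPM in fed livers, with 0 of 2 tested higher and 1 lower and with Hba-a1 and Hba-a2 at 0 in all libraries. The part of these cell types in the results was not tested.

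**Figure D3:**
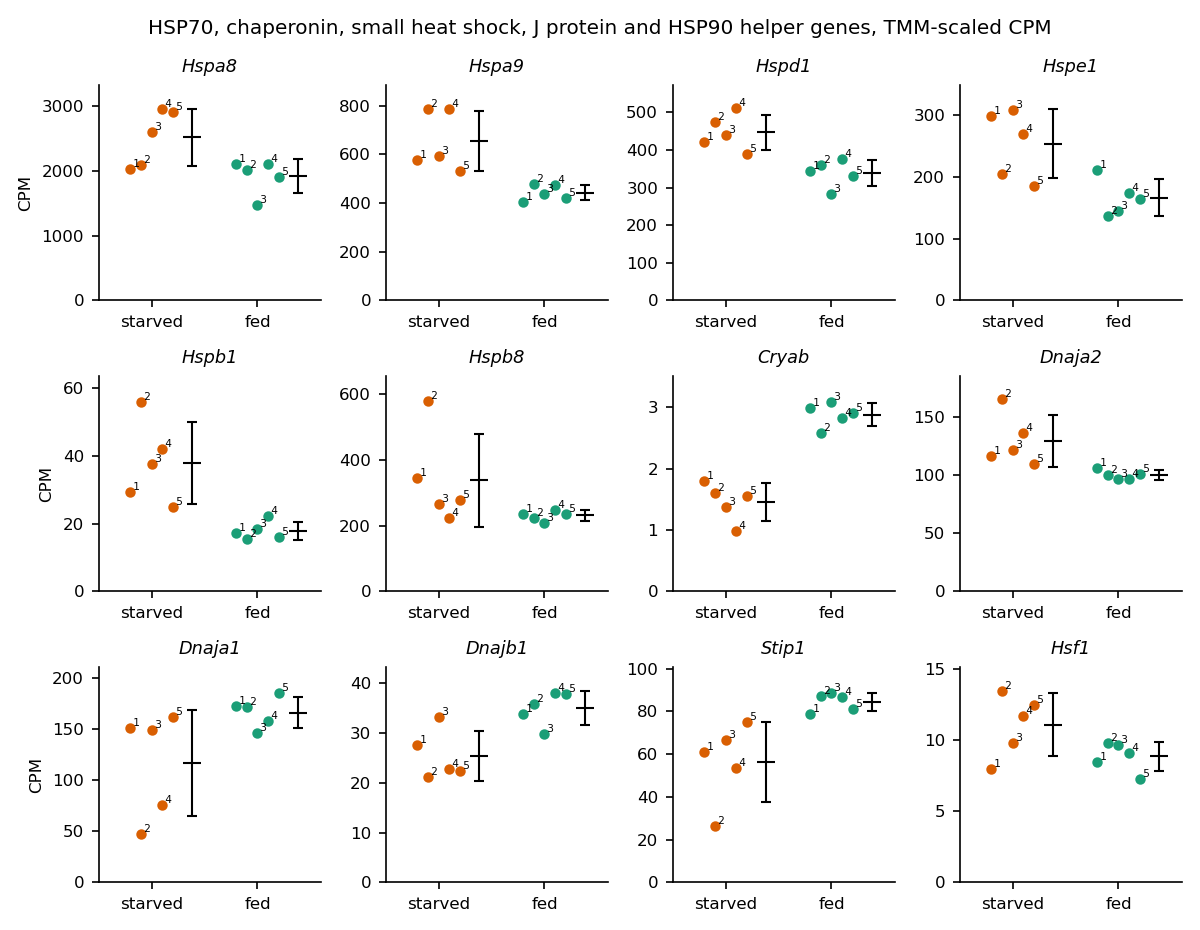
TMM-scaled CPM of 12 genes (HSP70, chaperonin, small heat shock, J protein and HSP90 helper genes, and Hsf1) in each library; orange points are starved and green points fed livers, numbered by library, and bars give the mean ± SD (n = 5). Starved libraries 2 and 4 are the highest for Hspa9 and Hspb1 and the lowest for Dnaja1 and Stip1, and Cryab is lower in every starved library than in any fed library.

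Hsf1, the transcription factor of the heat shock response, had 7.98, 13.5, 9.84, 11.7 and 12.5 CPM in the starved livers, against 8.5, 9.78, 9.67, 9.12 and 7.29 CPM in the fed livers (0.32 ± 0.16, adjusted p = 0.121). Starved libraries 2 to 5 were above every fed library, library 3 by a small margin, and starved library 1 was within the fed range. Hsf1 passed without starved library 1 (log2 fold change 0.42, adjusted p = 0.0342), and without starved libraries 2 and 4 it was 0.19 (adjusted p = 0.31).

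The starved livers varied more among themselves than the fed livers did. The coefficient of variation of the 36 tested genes had a median of 18.5% over starved and 9.31% over fed libraries, and was larger among starved libraries in 30 of 36 genes. In starved livers it ran from 5.11% for Cct5 to 50.1% for Chordc1, and in fed livers from 2.66% for Cct2 to 38.9% for Hspa1b. Starved library 2 was the lowest of its group in 13 genes and the highest in 8, and starved library 4 was the highest in 13. Such counts were not particular to these libraries. Starved library 5 was the lowest in 10 genes, fed library 3 the lowest of its group in 15, and fed libraries 1 and 4 the highest in 11 each. The deviations of starved library 2 were largest in Dnaja1, Stip1, Chordc1 and Hsph1 on the low side and in Hspb8 and Hspb1 on the high side, as the map of levels by library shows. The sum of all members was 7917 ± 488 CPM in starved and 6235 ± 468 CPM in fed livers, of which Hspa8 was the largest part.

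**Figure D4:**
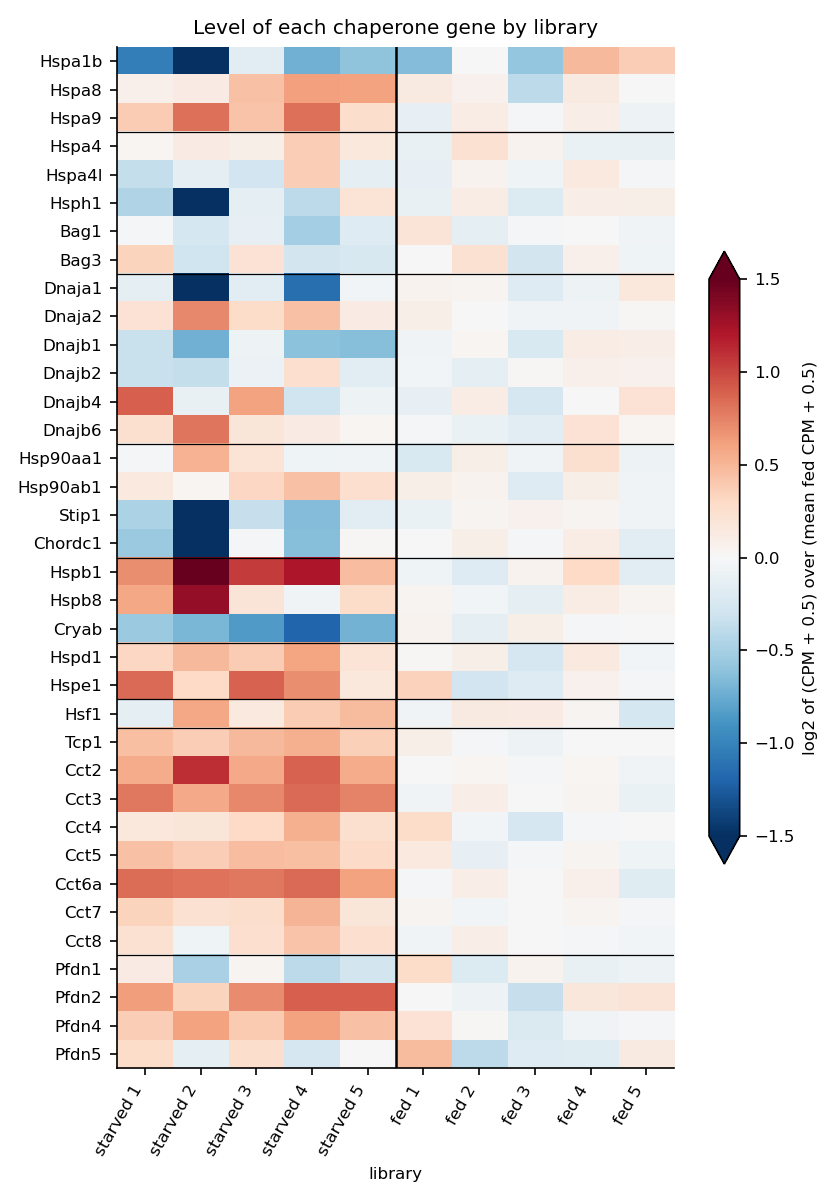
Level of each tested chaperone gene (rows, by role) in each library (columns, starved 1 to 5 left and fed 1 to 5 right), as log2 of CPM + 0.5 over the mean fed CPM + 0.5, red above and blue below the fed mean. Red runs across all starved columns for Hspa9, Hspb1, Hspd1, Tcp1, Cct2, Cct3, Cct5 and Cct6a, and the darkest blue stands in starved library 2.

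**Figure D5:**
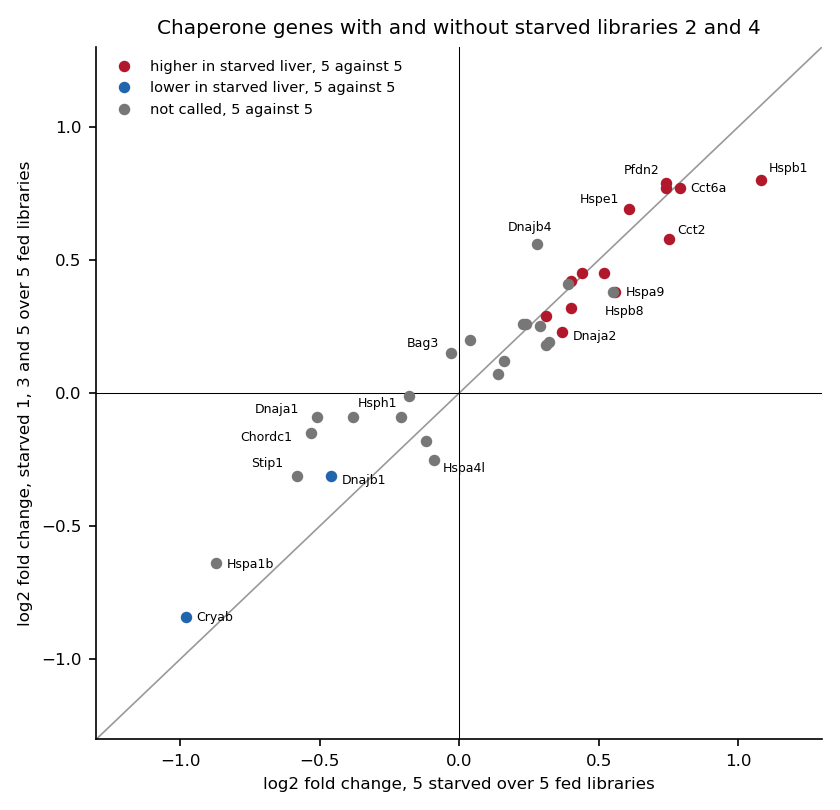
Log2 fold change of the 36 tested chaperone genes over all 5 starved and 5 fed libraries (horizontal axis) against the same without starved libraries 2 and 4 (vertical axis), with the line of equality; red marks genes called higher, blue genes called lower and grey genes not called over all libraries. Dnaja1 moves from −0.51 to −0.09 and Stip1 from −0.58 to −0.31, while Cct3 and Cct6a stay at 0.77 beside 0.74 and 0.79.

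Of 60 further chaperone genes from lists of the same pathways, 57 were tested, and 16 rose and 5 fell in starved liver, with a median log2 fold change of 0.18, or 0.12 after leaving out starved libraries 2 and 4 and 0.03 with library totals alone. That is 28.1% higher and 8.77% lower, beside 18.6% higher and 20.0% lower among all tested genes. The 15 mitochondrial chaperone and protease genes had 6 higher and 2 lower (40.0% and 13.3%) with a median of 0.12 (−0.04 with library totals alone). Clpx, the unfoldase of the matrix protease ClpXP, averaged 239 ± 39.4 CPM in starved and 87.4 ± 17 CPM in fed livers (1.45 ± 0.16, adjusted p = 7.80e-05). Grpel1, the exchange factor of Hspa9, averaged 287 ± 68.3 CPM in starved and 166 ± 18.5 CPM in fed livers (0.79 ± 0.16, adjusted p = 0.00249). Hspa9 and both chaperonin genes rose as well. Lonp1, another matrix protease, averaged 100.2 ± 11.3 CPM in starved and 137 ± 15.4 CPM in fed livers and fell (−0.45 ± 0.11, adjusted p = 0.00851). Clpb, a disaggregase of mitochondria, averaged 35.8 ± 3.37 CPM in starved and 44 ± 4.75 CPM in fed livers (−0.30 ± 0.11, adjusted p = 0.0441), and its call was lost without starved library 1, 3 or 4 or fed library 2, 3 or 4 (adjusted p of 0.0768 to 0.115), with DESeq2 size factors (0.06) and with no low-count filter (0.0644).

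Among 13 HSP90 co-chaperones 3 rose (23.1%) and 2 fell (15.4%), with a median of 0.06 (−0.11 with library totals alone). Both shares are near the 18.6% higher and 20.0% lower among all tested genes. Unc45a, a chaperone of myosins that binds HSP90, averaged 17.7 ± 6.27 CPM in starved and 7.85 ± 1.93 CPM in fed livers (1.17 ± 0.24, adjusted p = 0.00323). Leaving out starved libraries 2 and 4 gave Unc45a a log2 fold change of 0.80 (adjusted p = 0.00329). Sgta also rose (0.24 ± 0.09, adjusted p = 0.0487), and its call was lost without starved library 1, 3 or 4 (0.0581 to 0.074). It was also lost when any fed library was left out (0.0688 to 0.116) and with library totals alone (0.518). The immunophilins of steroid receptor complexes parted: Fkbp5, known as a glucocorticoid-inducible gene, averaged 211 ± 47.6 CPM in starved and 103 ± 22.5 CPM in fed livers and rose (1.03 ± 0.18, adjusted p = 0.0012). Fkbp4 averaged 70.03 ± 27.1 CPM in starved and 150.1 ± 9.79 CPM in fed livers and fell (−1.10 ± 0.24, adjusted p = 0.00451). Without starved libraries 2 and 4 its log2 fold change was −0.73. Tomm34, a co-chaperone of mitochondrial import, averaged 7.32 ± 1.86 CPM in starved and 10.3 ± 1.36 CPM in fed livers (−0.49 ± 0.17, adjusted p = 0.0374), and its call was lost without starved library 1, 3, 4 or 5 or fed library 1, 2, 4 or 5 (adjusted p of 0.0529 to 0.096) and with DESeq2 size factors (0.0536).

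Over all libraries with TMM scaling, 3 of the 15 other cytosolic HSP70, J protein and exchange factor genes rose and 0 fell. The median was 0.35, and 0 were lower at an unadjusted p under 0.05 in edgeR's quasi-likelihood test or by DESeq2 and limma-voom. The 20.0% higher is near the 18.6% among all tested genes. The median was 0.11 without starved libraries 2 and 4 and 0.17 with library totals alone. Hspa14 of this list passed as lower without starved library 1 (log2 fold change −0.42, adjusted p = 0.00974). With library totals alone Hspa14 passed as lower too (−0.43, adjusted p = 0.0383). Dnajc2, a J protein of the ribosome, averaged 28 ± 5.77 CPM in starved and 18.8 ± 1.38 CPM in fed livers (0.58 ± 0.14, adjusted p = 0.00711). The exchange factor Hspbp1 averaged 25.4 ± 3.7 CPM in starved and 18.2 ± 2.36 CPM in fed livers (0.48 ± 0.13, adjusted p = 0.0129). Bag4 also rose (0.27 ± 0.10, adjusted p = 0.0494), and its call was lost in limma-voom (0.0545) and with library totals alone (0.481). It was also lost without starved library 1, 3, 4 or 5 (0.0693 to 0.0857) and when any fed library was left out (0.0691 to 0.102). The 9 prefoldin and TRiC partners had 4 higher (44.4%) and 0 lower with a median of 0.33 (0.31 without starved libraries 2 and 4), and 0 lower at an unadjusted p under 0.05 and by DESeq2 and limma-voom. Uxt, a prefoldin-like protein, averaged 28.4 ± 5.91 CPM in starved and 17.9 ± 1.79 CPM in fed livers (0.67 ± 0.15, adjusted p = 0.00559), and Pdcl3, a phosducin-like co-factor of TRiC, 17.7 ± 2.92 CPM in starved and 12.9 ± 1.28 CPM in fed livers (0.45 ± 0.13, adjusted p = 0.0181). With library totals alone 1 of these 9 passed. Of 5 other small heat shock protein genes 2 were tested, and Hspb11, a part of the transport machinery of cilia, fell (2.53 ± 0.526 CPM in starved and 4.74 ± 0.819 CPM in fed livers, −0.91 ± 0.18, adjusted p = 0.00255). Of the 3 genes of other heat shock factors and their binding protein 0 passed, with 0 at an unadjusted p under 0.05 and 0 by DESeq2 and limma-voom. Hsbp1, the highest per kilobase of them and a binding protein of HSF1, averaged 54.4 ± 10.9 CPM in starved and 61.5 ± 5.77 CPM in fed livers (−0.18 ± 0.14, adjusted p = 0.339).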

How the data were processed

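Gene expression was measured by RNA-seq of total liver RNA, with libraries from a stranded TruSeq total RNA kit, as the labels' protocols state. The authors deposited whole-number read counts per gene, not normalised. Per the submitters' processing notes, TopHat2 2.0.0, Bowtie2 2.0.0, CASAVA 1.8.2, HTSeq and edgeR 3.6.4 were used with build mm10; annotation and strand setting: not given in the sources used here. Tally rows that name no gene held 58.2% to 68.8% of tallied reads in starved and 63.3% to 68.2% in fed libraries, and were left out of totals and tests; reads with several places were 42.9% ± 3.68 in starved and 47.1% ± 0.779 in fed libraries.

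From these counts, genes were filtered (filterByExpr), TMM-scaled and tested in R 4.3.3 with edgeR 4.0.16 (quasi-likelihood, Benjamini-Hochberg). Each library was taken as 1 mouse. CPM are means ± SD over 5 libraries. Levels per kilobase and coordinates use GENCODE exons of GRCm38, which is mm10; 98.2% of gene rows matched. Shared 50-base stretches were counted over annotated transcripts. Alternatives used DESeq2 1.42.0, limma-voom (limma 3.58.1), other scalings and filters, a replicate block and fewer libraries; leaving out starved libraries 2 and 4 together was chosen after earlier results had been seen. The main edgeR fit, limma-voom and the DESeq2 Wald test were first tested on simulated data, and the other alternatives were not. The members and lists were chosen with earlier results of these data known. Every called member, Hsf1, Hspa1a, Hspa1b and the highest member of each role are given per library; of each other list, up to 2 genes that rose and 2 that fell by most, with at least 1 CPM, are named, or the most abundant where none passed. Members outside this rule that are named with values were picked for their spread. Ly6g and Hbb-bt were not matched.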

Additional observations from a re-analysis of the deposited data

Results flagged for a closer look

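A library stood far from the rest of its group in 3 of the 72 groups of 5 values examined (36 genes, each in starved and in fed livers), by the size of the gap to the nearest other library relative to the whole range. Chance alone marks about 5% of groups. All 3 were starved libraries. Hspa4l, an HSP110 protein, was at 37.8 CPM in starved library 4, against 22.7 to 26.3 CPM in the other starved livers. Dnajb6, a J protein known to hold back aggregation of polyglutamine proteins, was at 146 CPM in starved library 2, against 85.4 to 98.4 CPM in the other starved livers. Cct6a was at 149 CPM in starved library 5, against 169.8 to 177 CPM in the other starved livers, and this value still lay above every fed library.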

How the results depend on the processing

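Of the 15 called chaperone genes, 7 (Hspa9, Hspb1, Cryab, Cct2, Cct3, Cct6a and Pfdn2) kept their call under all 18 alternatives, and of the 21 not called 10 stayed so. No member changed sign while called. The scaling mattered most: with library totals alone 1490 genes in place of 2379 were higher, 6 members in place of 13 were higher and 5 in place of 2 lower, and 10 other chaperone genes in place of 16 were higher. Members called lower numbered 4 in the DESeq2 Wald test (20.9% of all genes lower). Other chaperone genes called lower numbered 3 with DESeq2 size factors, in place of 5. Leaving out 1 library at a time gave 1868 to 2766 higher and 2043 to 2847 lower genes, 12 to 17 members higher and 1 to 4 lower, and 12 to 22 other chaperone genes higher and 3 to 5 lower.

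The replicate numbers gave no clear sign of pairing. The same-number correlation of deviations ran from −0.045 to 0.198, over 0.1 in 1 of 5 pairs. Of the 5 starved libraries 2 were closest to the fed library of their own number. These correlations cannot show whether the mice were paired, so the result with a replicate block is given here. With the replicate block, 12 members were higher and 1 lower, as Dnaja2 (adjusted p = 0.0547) and Dnajb1 (adjusted p = 0.0503) lost their calls, as did Clpb (adjusted p = 0.0977) among the other chaperone genes named. Counting depth limits Hspa1a and, less so, Hspa1b and Cryab.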
